A study of Mus musculus with 6 samples.

Results

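Eph receptors are receptor tyrosine kinases, and ephrins are their ligands on the surface of neighbouring cells. The 10 genes described here are 6 receptors (Ephb2, Ephb3, Ephb4, Epha1, Epha2 and Epha4) and 4 ephrins (Efnb1, Efnb2, Efna1 and Efna4). They were taken by gene symbol from a table of 52249 mouse genes, and all 10 were found. The table holds 6 libraries of mouse intestinal organoids, cultures of gut epithelium. Apc, the tumour suppressor whose loss leaves beta-catenin active, was knocked out in both groups. The control group held 3 Apc-knockout libraries, and the other 3 Apc-knockout libraries were labelled as overexpressing IGF2BP3, an RNA-binding protein. The question was how receptor and ligand transcripts differed between these groups. Mouse strain, age and sex, the way the knockout was made, the overexpression construct and the number of independent cultures are not given in the sources used here, so p-values measure only the spread between these libraries. No library with intact Apc was analysed here, so nothing below describes the effect of the knockout.

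In the intestine, B-class receptors are known as targets of beta-catenin and TCF factors and are highest towards the crypt base, while their transmembrane ligands, the B ephrins, are known to be higher towards the villus. Contact between receptor and ephrin sends signals into both cells, and the repulsion that follows helps to keep crypt and villus cells in their positions. Ephrins of the A class are held in the membrane by a lipid anchor and mainly bind A-class receptors.

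Libraries were made with a 3′ mRNA method, which reads near the polyadenylated end, so that a count stands for a transcript end and levels of different genes can be set side by side without a length correction. Total counts ran from 2180116 to 2228078 in the controls and from 2310236 to 2519917 in the OE-labelled libraries. Levels are given as CPM, the count relative to library size, scaled by TMM factors, and 3 counts, the lowest level read as detected, correspond to 1.19 to 1.38 CPM. Mouse Igf2bp3 itself had 1, 0 and 0 counts in the controls and 1, 0 and 0 counts under the OE label (replicates 1, 2 and 3), so its counts gave no check of the label, and the second group is called OE-labelled throughout. Apc had 80.4 ± 4.30 CPM in the controls and 62.0 ± 2.37 CPM under the OE label (SD over n = 3, edgeR adjusted p = 0.0323). That call for Apc was lost in 9 of 20 alternative fits. Apc counts do not separate knockout transcripts from others and checked nothing either. Library names fall into a separate series for each group, so the library series and the groups cannot be told apart. In bulk RNA, fewer cells of a type and less RNA per cell cannot be told apart either.

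The promoters of the 3 genes whose change passed the test are shown first, because 2 of these genes were higher and 1 was lower and their upstream sequences can be compared directly. The sequences are those of RefSeq (GRCm38.p6), 5′ to 3′ on the gene's strand, upstream of the annotated start, with CG steps in capitals. The Ephb3 window ends 40 bases earlier than the others, at the first base that a second annotation (GENCODE M21) assigns to the gene.
Ephb3 (chr16:21204545-21204754, plus strand): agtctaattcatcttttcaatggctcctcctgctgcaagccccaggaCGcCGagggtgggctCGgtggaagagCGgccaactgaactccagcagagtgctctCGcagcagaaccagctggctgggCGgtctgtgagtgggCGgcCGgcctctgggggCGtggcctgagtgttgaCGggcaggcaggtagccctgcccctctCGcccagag
Efna4 (chr3:89338029-89338278, minus strand): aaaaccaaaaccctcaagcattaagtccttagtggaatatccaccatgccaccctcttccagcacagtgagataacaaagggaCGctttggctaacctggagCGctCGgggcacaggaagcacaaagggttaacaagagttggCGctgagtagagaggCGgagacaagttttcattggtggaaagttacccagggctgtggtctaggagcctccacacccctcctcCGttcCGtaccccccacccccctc
Efnb2 (chr8:8661243-8661492, minus strand): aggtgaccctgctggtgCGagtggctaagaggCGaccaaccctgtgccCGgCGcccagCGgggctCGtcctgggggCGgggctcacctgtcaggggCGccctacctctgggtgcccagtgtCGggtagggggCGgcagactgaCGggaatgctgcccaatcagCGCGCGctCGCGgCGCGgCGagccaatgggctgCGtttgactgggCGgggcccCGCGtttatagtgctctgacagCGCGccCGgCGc
The printed stretch of Ephb3 holds 11 CG steps. Counted over the full 250 bases before the RefSeq start, Ephb3 had 16 CG steps, Efna4 had 7 and Efnb2 had 27, against a median of 6 over 32851 such windows of 27025 genes. The windows of the other members were above that median too, from 9 CG steps (Epha1 and Epha2) to 20 (Ephb2). A count above the median thus did not set the 3 genes apart, and Efna4 had the lowest count of the 10 genes. CTTTGA, bound by TCF/LEF factors, and CACGTG, the E-box bound by MYC, were searched on both strands and do not overlap each other. CTTTGA was in none of the 3 windows, and among the windows of all 10 genes only that of Epha2 held it (209 bases before the start). It was in 13.8% of all windows. CACGTG was in no window of the 10 genes and in 6.02% of all windows. A match or its absence describes these letters in this window and nothing about the binding of a factor elsewhere.

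Of the 10 genes, Ephb3 and Efna4 were higher in the OE-labelled libraries, Efnb2 was lower, and the change of the other 7 did not pass the test (edgeR's quasi-likelihood test over all genes, adjusted p below 0.05). All 10 passed the filter on low counts. Of 10687 tested genes, 3118 (29.2%) passed the same test, with 16.5% of tested genes higher and 12.7% lower, so 3 of 10 is close to the background and is not a result about this family. Control and OE-labelled values were fully apart for 5 of the 10 genes, against 45.7% of all tested genes. The median log2 fold change of the 10 genes was 0.05, and that of all tested genes was 0.04.

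**Figure D1:**
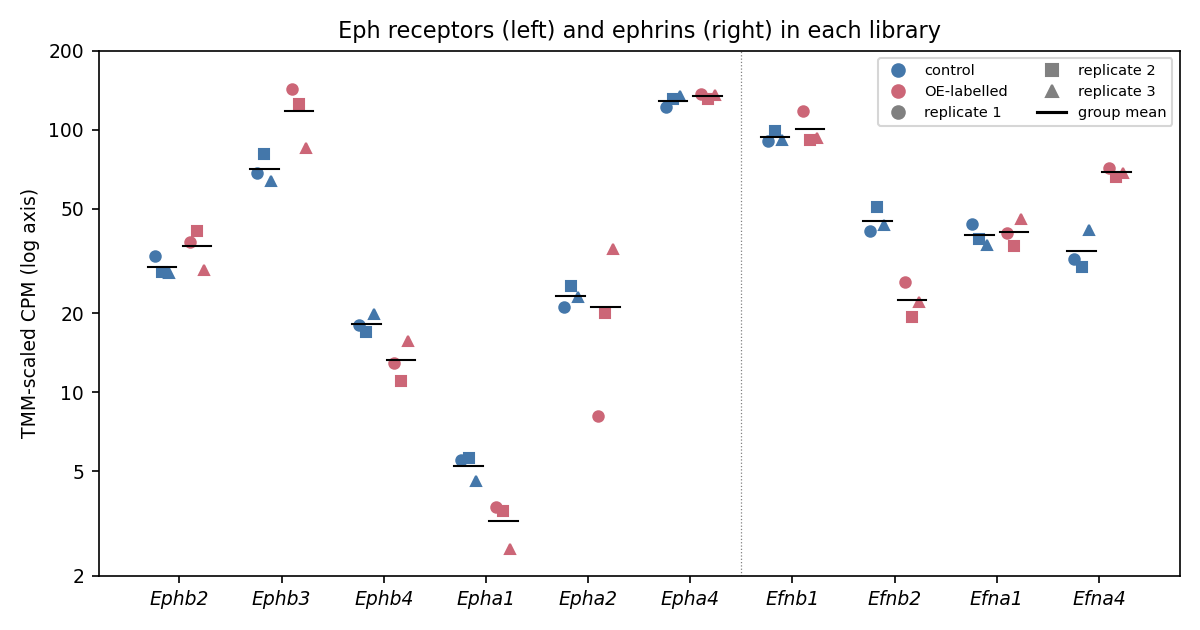
TMM-scaled CPM on a log axis for each of the 10 genes in each library, control in blue and OE-labelled in red, with a marker shape for each replicate number and a line for the group mean (n = 3). Ephb3 and Efna4 lie above and Efnb2 below the control libraries in all 3 OE-labelled libraries, and Epha2 is spread from 8.10 to 35.1 CPM among OE-labelled libraries.

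Among control libraries the order of the levels was led by the receptor Epha4 (122.6 to 134.1 CPM), then Efnb1 (90.3 to 98.99 CPM) and Ephb3 (64.0 to 80.7 CPM), whose ranges did not overlap. Efnb2, Efna1, Efna4 and Ephb2 followed between 28.6 and 50.7 CPM, and each overlapped its neighbour in this order. Epha2, Ephb4 and Epha1 were the lowest, and Epha1 had at most 5.63 CPM. In OE-labelled libraries Epha4 still had the highest mean, but its range overlapped that of Ephb3, which in turn overlapped that of Efnb1. Efna4 moved from the sixth to the fourth place and Efnb2 from the fourth to the seventh.

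Ephb3 is a B-class receptor of crypt base and Paneth cells. It lies on the plus strand of chromosome 16 (21204755 to 21223305 in GRCm38) and overlaps no other annotated gene. Ephb3 was counted at 68.2, 80.7 and 64.0 CPM in control replicates 1, 2 and 3, and at 143, 126 and 85.0 CPM in OE-labelled replicates 1, 2 and 3. The groups did not overlap, but OE-labelled replicate 3 lay close to the highest control library. The mean rose from 71.0 ± 8.66 CPM to 118 ± 29.6 CPM (SD over n = 3), a log2 fold change of 0.73 with SE 0.18 (edgeR adjusted p = 0.00852). The call was lost without control replicate 3 (0.66, edgeR adjusted p = 0.0556) and without OE-labelled replicate 2 (0.66, edgeR adjusted p = 0.0528), and without OE-labelled replicate 3 the change was 0.92. With an offset for GC content it was 0.50 (edgeR adjusted p = 0.04999), just inside the threshold.

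Of 8 markers of Paneth cells, in which Ephb3 is known to be expressed, 5 had 0 counts in every library (Lyz1, Defa17, Defa24, Ang4 and Pla2g2a). The summed level of the list was 134 to 140 CPM in the controls and 292 to 403 CPM in the OE-labelled libraries. It rested on 2 markers, Mmp7 and Reg3g, the only ones tested and both higher, where 16.5% of all tested genes were higher. These 2 genes alone do not describe Paneth cells as a type. Mmp7, a protease that activates defensins, rose by 1.14 with SE 0.17 (edgeR adjusted p = 0.000517). The part of Paneth cells in the result for Ephb3 was not tested.

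Ephb2, the receptor most often used to mark the crypt base, did not pass the test. It lies on the minus strand of chromosome 4 (136647539 to 136835988 in GRCm38). Ephb2 had 33.2, 28.6 and 28.6 CPM in the controls and 37.3, 41.3 and 29.2 CPM in the OE-labelled libraries, with OE-labelled replicate 3 inside the control range. The log2 fold change was 0.26 (95% interval -0.12 to 0.63, edgeR adjusted p = 0.288), an interval that includes 0. It overlaps the 95% interval of Ephb3, 0.35 to 1.11. The estimate was 0.116 without OE-labelled replicate 2, 0.387 without OE-labelled replicate 3, 0.051 with the GC offset and 0.503 with the exonic length offset, and it passed in none of these fits (lowest edgeR adjusted p = 0.064). The ratio of Ephb3 to Ephb2 counts was 2.06, 2.82 and 2.24 in the controls and 3.83, 3.05 and 2.91 in the OE-labelled libraries, without overlap (exact two-sided permutation test, p = 0.1, the smallest that 3 against 3 libraries allow; 0.1 adjusted over 5 ratios).

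Ephb4, the B-class receptor best known from veins, was found at a low level. Ephb4 had 17.97, 16.9 and 19.8 CPM in the controls and 13.0, 11.0 and 15.6 CPM in the OE-labelled libraries. All OE-labelled values lay below all control values, but the change of -0.47 (95% interval -0.94 to 0, edgeR adjusted p = 0.124) did not pass. With the GC offset it passed, at -0.71 (edgeR adjusted p = 0.0327). Markers of endothelium, where Ephb4 and Efnb2 are well known, summed to 0.921 to 1.84 CPM in the controls and 0.810 to 1.18 CPM in the OE-labelled libraries, with Cdh5, Tek and Tie1 at 0 counts in every library. Ephb4 overlaps Zan on the opposite strand, which had 3 to 7 counts per library.

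The A-class receptors showed no change that passed the test. Epha4, which binds ephrins of both classes, had the highest mean level of the 10 genes in both groups. Epha4 was counted at 123, 131 and 134 CPM in the controls and 137, 131 and 136 CPM in the OE-labelled libraries. The log2 fold change was 0.06, with a 95% interval from -0.17 to 0.29 (edgeR adjusted p = 0.712), which includes 0.

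Epha2, a receptor of epithelial cells that is often raised in carcinoma, had similar group means but differed widely among the OE-labelled libraries. Epha2 had 46, 54 and 50 counts in the controls and 20, 51 and 83 counts under the OE label. The exact 95% Poisson intervals of the lowest and highest OE-labelled counts, 12.2 to 30.9 and 66.1 to 103 counts, were far apart, and these intervals cover counting error only. In CPM the highest OE-labelled value was 4.33 times the lowest, a ratio reached by 1.59% of all tested genes, while the control libraries differed by 1.20 times. Tested genes as a whole also differed more among OE-labelled libraries, with a median ratio of 1.355 against 1.222 in the controls. The log2 fold change was -0.14 with SE 0.36 (edgeR adjusted p = 0.796). Without OE-labelled replicate 1 it was 0.19 and without replicate 3 it was -0.71, neither of which passed (edgeR adjusted p = 0.558 and 0.0901). OE-labelled replicate 3, the highest for Epha2, was the lowest of its group for Ephb2 and Ephb3.

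Epha1, an epithelial receptor of the A class, rested on few counts. Epha1 had 12, 12 and 10 counts in the controls and 9, 9 and 6 counts under the OE label. The values did not overlap, but the change of -0.68 (95% interval -1.44 to 0.07, edgeR adjusted p = 0.157) did not pass. Epha1 overlaps Zyx, a gene on the opposite strand with 33 to 40 counts in the controls and 62 to 84 counts in the OE-labelled libraries, and the sources used here do not say whether strand was used in counting.

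Efnb2, a transmembrane ligand of B-class receptors, was the only gene of the 10 that was lower. It lies on the minus strand of chromosome 8 (8617434 to 8661242 in GRCm38), where 3 unconfirmed transcript models overlap it on the same strand. The symbols of these models were not found among the counted genes, so no counts can be given for them. Efnb2 was counted at 41.0, 50.7 and 43.3 CPM in the controls and 26.3, 19.3 and 22.0 CPM in the OE-labelled libraries. Every OE-labelled library lay well below the lowest control library. The mean fell from 45.0 ± 5.04 CPM to 22.5 ± 3.56 CPM (SD over n = 3), a log2 fold change of -0.997 with SE 0.17 (edgeR adjusted p = 0.0013).

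Efnb1, the other B ephrin and on chromosome X (99136130 to 99148991 in GRCm38, plus strand), gave a different picture. Efnb1 had 90.3, 98.99 and 91.7 CPM in the controls and 118, 91.6 and 93.4 CPM in the OE-labelled libraries, of which only replicate 1 was above the control range. Its log2 fold change was 0.11 (95% interval -0.17 to 0.39, edgeR adjusted p = 0.565), and this estimate was negative with the GC offset and without OE-labelled replicate 1. The ratio of Efnb1 to Efnb2 counts was 2.20, 1.95 and 2.12 in the controls and 4.46, 4.76 and 4.25 in the OE-labelled libraries (exact two-sided permutation test, p = 0.1, the smallest possible; 0.1 adjusted over 5 ratios). Within each group this ratio varied less than the difference between the groups.

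Efna4, a lipid-anchored ligand, had the largest rise of the 10 genes. It lies on the minus strand of chromosome 3 (89333390 to 89338028 in GRCm38). Efna4 was counted at 32.3, 30.0 and 41.5 CPM in the controls and 71.7, 66.1 and 68.5 CPM in the OE-labelled libraries. The 3 OE-labelled values were close together and all far above the control values. The mean rose from 34.6 ± 6.06 CPM to 68.8 ± 2.83 CPM (SD over n = 3), a log2 fold change of 0.99 with SE 0.15 (edgeR adjusted p = 0.00061). On the opposite strand Efna4 overlaps 4731419I09Rik, which had 0 to 1 counts in the controls and 2 to 5 counts in the OE-labelled libraries, few beside the 162 to 177 counts of Efna4.

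Efna1, a ligand of Epha2 among others, is a neighbour of Efna4 on the same strand of chromosome 3 (89271733 to 89281142), and Efna3 lies between them (89313899 to 89322965). Efna1 had 43.8, 38.5 and 36.4 CPM in the controls and 40.5, 36.2 and 45.7 CPM in the OE-labelled libraries, so the groups overlapped. Its log2 fold change was 0.04 (95% interval -0.29 to 0.37, edgeR adjusted p = 0.861), with a sign that depended on the scaling. Efna3 also did not pass (-0.15, 95% interval -0.61 to 0.31, edgeR adjusted p = 0.633). The ratio of Efna4 to Efna1 counts was 0.737, 0.781 and 1.14 in the controls and 1.77, 1.83 and 1.5 in the OE-labelled libraries (exact two-sided permutation test, p = 0.1, the smallest possible; 0.1 adjusted over 5 ratios).

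**Figure D2:**
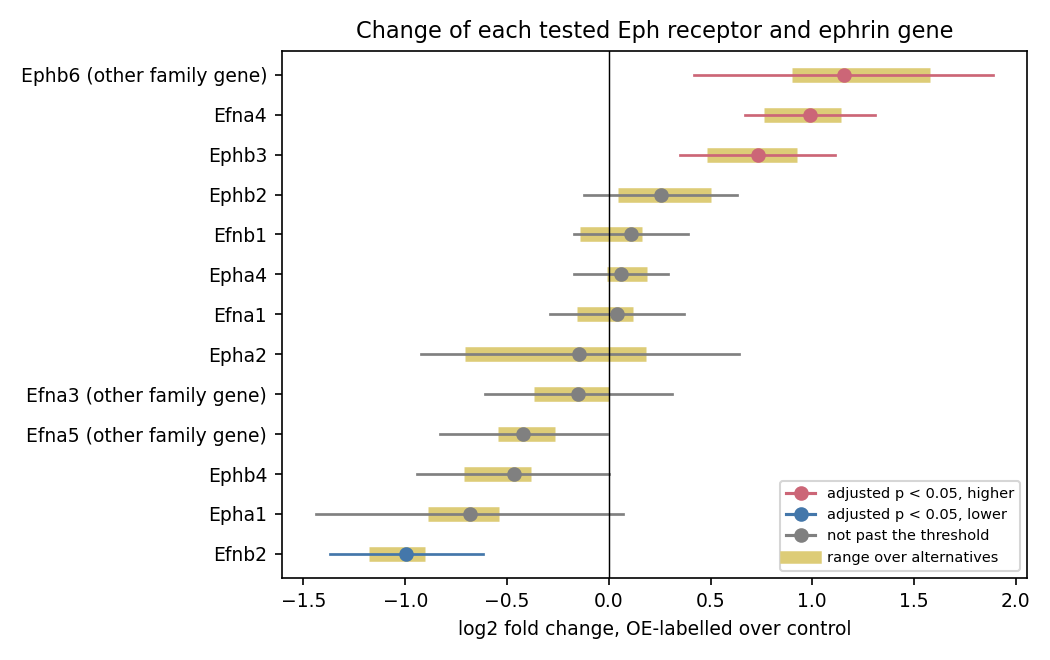
Log2 fold change of the OE-labelled over the control libraries for the 13 Eph receptor and ephrin genes that passed the filter on low counts. Thin lines are 95% intervals from the edgeR fit. Yellow bars are the range over all alternatives, fits without single libraries included. Efna4, Ephb3 and Ephb6 (higher) and Efnb2 (lower) passed the test, and the interval of Efna5 only just misses 0 before adjustment. The bar of Epha2 spans from -0.71 to 0.19, and both ends come from fits without 1 OE-labelled library.

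The family has 12 further genes in the table. Epha3, Epha5, Epha6, Epha8, Epha10 and Ephb1 had 0 counts in all 6 libraries, which allows a level of up to 1.38 CPM in the shallowest library (counting error only). Epha7, Efna2 and Efnb3 had at most 10 counts in any library and did not pass the filter. Ephb6, a receptor whose kinase is inactive, had 10, 20 and 10 counts in the controls and 43, 24 and 35 counts under the OE label. It was higher by 1.16 with SE 0.34 (edgeR adjusted p = 0.0224), with the highest control value, 9.38 CPM, just below the lowest OE-labelled value, 9.44 CPM. The call for Ephb6 was lost without control replicate 1 (0.98, edgeR adjusted p = 0.102), control replicate 3 (0.98, edgeR adjusted p = 0.106) or OE-labelled replicate 1 (0.90, edgeR adjusted p = 0.0528), with DESeq2's test (adjusted p = 0.0523) and with the GC offset (edgeR adjusted p = 0.0637). Efna5, an A ephrin, had 26.7, 31.9 and 36.9 CPM in the controls and 25.9, 19.7 and 25.8 CPM in the OE-labelled libraries, and its change of -0.42 passed only without OE-labelled replicate 1 (-0.545, edgeR adjusted p = 0.0436; 0.109 with all libraries).

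Summed by class, the 3 B-class receptors held 119, 126 and 112 CPM in the controls and 193, 178 and 130 CPM in the OE-labelled libraries. The 2 B ephrins held 131, 150 and 135 CPM in the controls and 144, 111 and 115 CPM in the OE-labelled libraries, with overlap. B-class receptor counts were 0.909, 0.843 and 0.833 times the B ephrin counts in the controls and 1.34, 1.61 and 1.12 times in the OE-labelled libraries. The ratio was thus below 1 in all 3 control and above 1 in all 3 OE-labelled libraries (exact two-sided permutation test, p = 0.1, the smallest possible, and 0.1 adjusted over 5 ratios). It contains Ephb3 and Efnb2, already called in the same libraries, and is no separate result for the classes. Ephb2 and Efnb1 did not pass the test, and Ephb4 had a lower mean under the OE label (18.2 to 13.2 CPM). The ratios of Ephb3 to Ephb2, Efnb1 to Efnb2 and Efna4 to Efna1 likewise each contain a called gene. The 3 A-class receptors held 149, 162 and 162 CPM in the controls and 149, 154 and 174 CPM in the OE-labelled libraries. The 2 A ephrins held 76.0, 68.5 and 77.9 CPM in the controls and 112, 102 and 114 CPM in the OE-labelled libraries, without overlap. This sum contains the called Efna4 and is no separate result for the class, as the mean of Efna1 was 39.6 CPM in the controls and 40.8 CPM under the OE label. For the B-class receptor and A ephrin sums the exact two-sided permutation test gave p = 0.1, the smallest possible (0.175 adjusted over 7 sums). Over all 6 receptors and 4 ephrins, the ratio of receptor to ephrin counts was 1.296, 1.32 and 1.29 in the controls and 1.33, 1.56 and 1.32 in the OE-labelled libraries, which nearly touched.

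Shares within the summed counts of the 10 genes do not depend on the scaling between libraries. Efnb2 took 9.17% ± 0.738 of these counts in the controls and 4.02% ± 0.446 in the OE-labelled libraries (SD over n = 3), and Efna4 took 7.07% ± 1.32 and 12.3% ± 0.46 (SD over n = 3). The exact two-sided permutation test gave p = 0.1, the smallest possible, for both (0.2 adjusted over 10 shares). It gave the same values for Ephb4, Epha1 and Epha4, whose change in CPM did not pass the test. Ephb3 took 14.3, 15.9 and 13.2% in the controls and 23.9, 23.1 and 15.9% in the OE-labelled libraries, so that its share in OE-labelled replicate 3 was equal to that in control replicate 2 (exact permutation p = 0.2; 0.333 adjusted over 10 shares). Epha4 took the largest share in each group, 26.4% ± 0.999 in the controls and 24.1% ± 1.32 in the OE-labelled libraries (SD over n = 3).

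**Figure D3:**
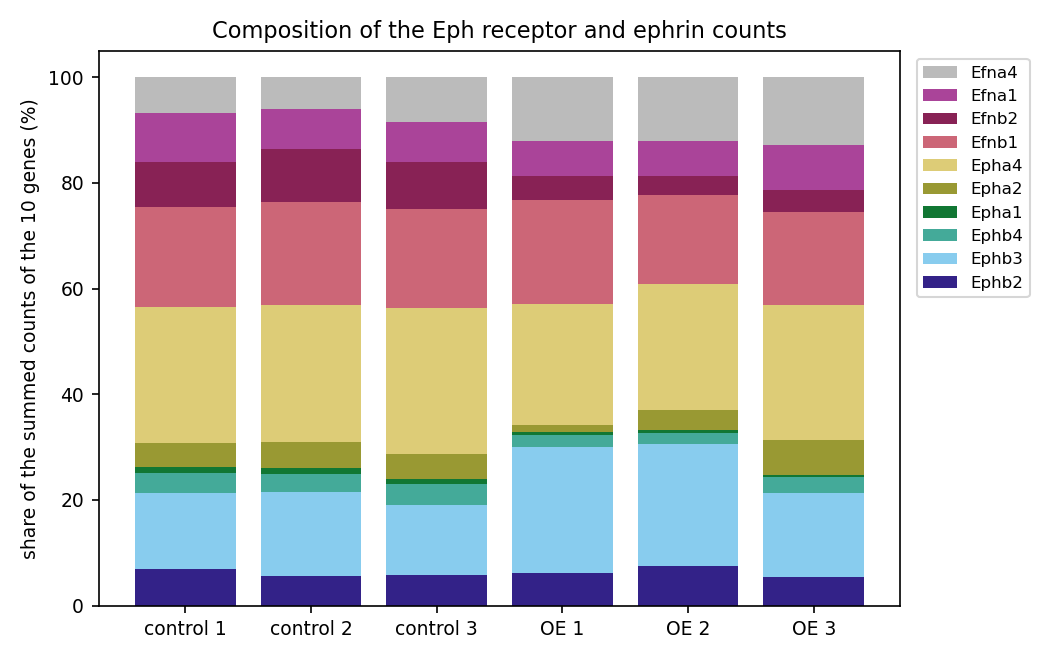
Share of each gene in the summed counts of the 10 genes, in percent, for each library (1 bar a library). The Efna4 segment is wider and the Efnb2 segment narrower in the 3 OE-labelled bars, and the Ephb3 segment is wide in OE-labelled replicates 1 and 2 but not in replicate 3.

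Genes that act with Eph receptors and ephrins were examined as lists. Of 40 tested signalling partners (adaptors, kinases and regulators of small GTPases, 45 listed), 9 were higher and 7 lower, where 16.5% of all tested genes were higher and 12.7% lower. The median log2 fold change was 0.04, the same as that of all tested genes. Cdc42, a GTPase of the actin cytoskeleton, rose from 249 ± 12.5 CPM to 389 ± 21.0 CPM (SD over n = 3, edgeR adjusted p = 0.000728). Rac1, another such GTPase, rose by 0.61 on the log2 scale with SE 0.10 (edgeR adjusted p = 0.0011). Cbl, a ubiquitin ligase that directs activated receptors to degradation, fell from 97.5 ± 4.15 CPM to 55.9 ± 8.43 CPM (SD over n = 3, edgeR adjusted p = 0.0011).

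The 16 genes of shedding, cleavage and dephosphorylation were all tested, of which 2 were higher and 3 lower, a share close to the 29.2% of all tested genes that passed, with a median of -0.30 against 0.04. Adam10, the metalloprotease that cuts ephrins and Eph receptors from the cell surface, fell from 165 ± 7.58 CPM to 97.6 ± 9.22 CPM (SD over n = 3), a log2 fold change of -0.76 with SE 0.11 (edgeR adjusted p = 0.00061). Ptpn13, a tyrosine phosphatase that can act on ephrin-B ligands, fell from 126 ± 5.84 CPM to 57.7 ± 10.7 CPM (SD over n = 3, edgeR adjusted p = 0.000217). Acp1, a phosphatase that binds Eph receptors, rose by 0.63 with SE 0.13 (edgeR adjusted p = 0.00364). The Adam10, Ptpn13, Acp1, Cdc42, Rac1 and Cbl calls held in all 20 alternatives run for each of them.

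WNT target genes of crypt base and adenoma, to which Ephb2 and Ephb3 are usually counted, were 2 higher and 1 lower among 11 tested of 19 listed, close to the 29.2% of all tested genes, with a median of 0.11. Sox9, a transcription factor of crypt progenitors, rose from 343 ± 9.28 CPM to 514 ± 71.3 CPM (SD over n = 3, edgeR adjusted p = 0.00277). Ascl2, the stem cell factor, had at most 33 counts in any library and was higher by 1.52 with SE 0.47 (edgeR adjusted p = 0.0292), which 6 of 19 alternatives did not keep. The fits without control replicate 1 (1.75) or 2 (1.012) and without OE-labelled replicate 1 (1.23) or 2 (1.5) were among these, with edgeR adjusted p of up to 0.089. Myc, at 25.8 ± 5.18 CPM in the controls and 12.0 ± 8.04 CPM in the OE-labelled libraries (SD over n = 3), had a log2 fold change of -1.11 (edgeR adjusted p = 0.0472). Of 19 alternatives 6 did not keep that call, DESeq2 (adjusted p = 0.21) and the fits without OE-labelled replicate 2 (-1.26) or without control replicate 1 (-1.23), 2 (-0.943) or 3 (-1.13) among them. Myc was -0.715 without OE-labelled replicate 1 and -1.58 without OE-labelled replicate 3.

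**Figure D4:**
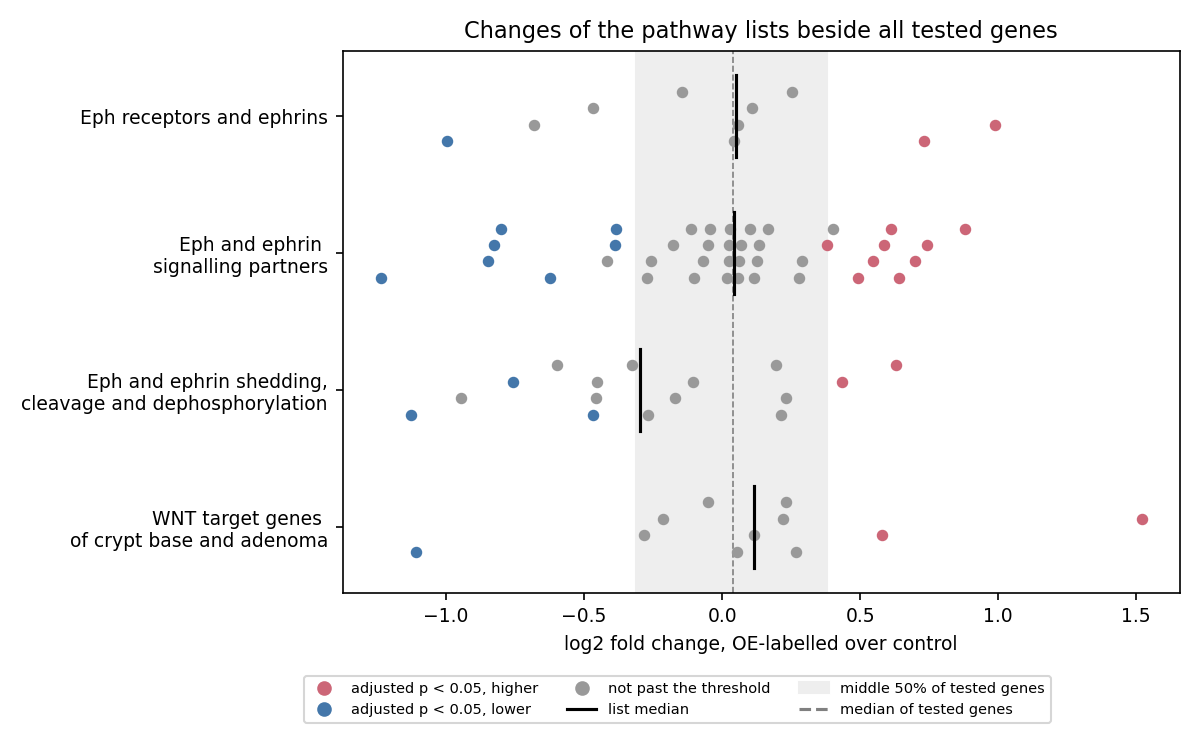
Log2 fold change of each tested gene of the 10 Eph receptors and ephrins and of 3 lists of related genes (1 point a gene), with the list median as a black line, the median of all tested genes dashed and their middle 50% shaded (-0.31 to 0.38). Genes past the test lie on both sides of 0 in every list.

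Organoid identity was checked with marker lists. Epithelial markers summed to 4152 to 4389 CPM in the controls and 5403 to 6127 CPM in the OE-labelled libraries. Of 8 tested genes 4 were higher (Krt8, Krt18, Krt19 and Vil1), where 16.5% of all tested genes were higher. Cldn7, a tight junction protein, was lower (203.3 ± 14.01 CPM to 95.1 ± 15.1 CPM, SD over n = 3, edgeR adjusted p = 0.000177), and Krt20 and Cdx1 had 0 counts throughout. Enterocyte markers, those of the villus cells, summed to 6.45 to 7.37 CPM in the controls and 1.18 to 2.11 CPM under the OE label. Of the 11 enterocyte genes only Apob had enough counts to be tested, with 10 to 16 counts in the controls and 0 to 1 counts under the OE label (edgeR adjusted p = 0.000532). The lower sum came from Apob, whose mean was 6.03 CPM in the controls and 0.28 CPM under the OE label. Fabp2 went the other way, with 1, 0 and 0 counts in the controls and 2, 1 and 3 counts under the OE label. Alpi, Apoa1, Apoa4, Fabp1, Sis and Anpep had 0 counts throughout, so the sum describes 1 gene with few counts. Goblet cell markers summed to 589.7 to 614 CPM in the controls and 1273 to 1488 CPM under the OE label, with 3 of 5 tested genes higher, where 16.5% of all tested genes were higher. Tuft cell markers summed to 142 to 156 CPM in the controls and 183 to 219 CPM under the OE label, with Avil higher and Dclk1 not past the test. Fibroblast and mesenchyme markers summed to at most 1.88 CPM. The part of these cell types in the changes of the 10 genes was not tested.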

How the data were processed

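Estimated counts per gene, not normalized, were deposited by the authors; 3.09% of the values above 0 were fractional (none in the 10 genes); these were rounded before testing, whereas whole counts had been assumed in the plan. STAR, HTSeq and the build mm10/GRCm38 are named without settings in the submitters' processing notes; annotation, strand and molecular identifiers are not given in the sources used here. Per the labels' protocols, a QuantSeq 3′ forward kit was used. Columns were matched through library names and groups taken from titles. Genes kept by filterByExpr were tested with edgeR 4.0.16 (quasi-likelihood, TMM, no covariates, R 4.3.3), adjusted by Benjamini-Hochberg over 10687 genes. Each SE is the log2 fold change over the root of its F statistic. Shares, class sums and ratios were tested by exact permutation, class sums as 7 and ratios as 5 comparisons. Positions, overlaps, exonic length and GC content (longest transcript) come from GENCODE M21 (99.5% of identifiers found), promoters from RefSeq. All 10 members, family genes past the filter, and up to 3 genes with the smallest p of each list are named. Members and lists were chosen with earlier results of these data known. Alternatives used DESeq2 1.42.0, limma 3.58.1 (voom, also with a variance per group), other scalings, filters and depth, offsets (loess, span 0.5), the replicate block, single libraries left out and a threshold of 0.01. The fits were tested on simulated data.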

Additional observations from a re-analysis of the deposited data

How the results depend on the processing

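Efna4 and Efnb2 kept direction and call in all 20 alternatives, with log2 fold changes from 0.76 to 1.14 and from -1.18 to -0.90. Ephb3 kept its direction in all 20 (0.48 to 0.92) and lost its call in 2, described above. Members passing stayed at 3 except for 4 under the GC offset, alone or joined to the replicate block, where Ephb4 made 2 lower genes, and 2 to 3 when single libraries were left out (1 to 2 higher). The replicate numbers were not taken as pairs. Deviations of equally numbered libraries correlated at 0.097, 0.018 and 0.069 for replicates 1, 2 and 3, against a mean of -0.031 for unequal numbers. Every library except control replicate 2 correlated best with its own number, so these weak values do not decide whether the numbers mark pairs. With the replicate block 3112 genes and 3 members passed, and the block changed no call of a member. Under the GC offset 2457 of 10687 tested genes passed, a smaller share than the 29.2% without it. Of these, 2048 were among the 3118 genes called without the offset. Over all genes, leaving out single libraries gave 1748 to 3532 calls, 1033 to 1959 higher and 715 to 1731 lower, DESeq2 gave 1059 higher, and a threshold of 0.01 gave 1578 (944 higher, 634 lower). The balance of all calls moved with the scaling: the share in the higher direction was 56.6% as reported, 63.8% by library totals, 48.4% without mitochondrial genes and 49.9% by the size factors of DESeq2. Estimates near 0 changed sign without passing. Efna1 became -0.001 with DESeq2 size factors, -0.00014 with DESeq2's test, -0.013 without mitochondrial genes, -0.138 under the GC offset (-0.139 jointly with the replicate block) and -0.155 under the exonic length offset. Efnb1 turned to -0.135 under the GC offset (-0.14 jointly with the block). Leaving out single libraries gave -0.041 to 0.119 for Efna1, -0.073 to 0.162 for Efnb1, -0.01 to 0.085 for Epha4 and -0.707 to 0.185 for Epha2; the difference in share ran from -0.308 to 0.741 percentage points for Ephb2 and from -2.21 to 0.4 for Epha2. The causes were not tested. Of 199 values of the 10 genes, 181 kept direction and call. Low counts limit Epha1 most.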

Other observations

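The longest annotated transcripts of the 10 genes were rich in GC and in the letters GGAC, the core of the sequence in which adenosine is methylated in mRNA and which IGF2BP proteins are known to read in methylated form. GC content was above the median of tested protein-coding genes (49.8%) in 9 of the 10, Epha4 being the exception at 45.6%. GGAC occurred at 8.25 per kb in Epha1 and 8.18 per kb in Epha2, at percentiles 97.4 and 97.3 of 10271 tested protein-coding genes. Efnb2 had 4.59, Ephb3 had 6.53 and Efna4 had 5.63 per kb, against a median of 4. A relation of GGAC, or of its reading by IGF2BP3, to the changes of these genes was not tested. All 10 were above that median. GC content and GGAC share letters, so the 2 measures are not independent. Over protein-coding genes (genes are not replicates of each other), the log2 fold change ranked with GC content (Spearman rho 0.37).

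The genes outside the family whose log2 CPM was most like that of Ephb3 over the 6 libraries were Tbc1d22a, Sfxn3 and Map4k4 (Pearson r from 0.995 to 0.999), out of 8531 candidates. For Ephb2 they were Afg3l1, Tmub1 and Epb41l4aos (r from 0.974 to 0.988). The 6 libraries share 2 groups and their depth, and these values describe likeness over 6 points only.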
